A study of Homo sapiens with 11 samples.

Results

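Ikaros binding in Nalm6 cells treated with the CK2 inhibitor CX-4945 was set beside Ikaros binding in untreated 697 cells, the pair of lines for which the labels name one affinity-purified anti-Ikaros antibody. Both are established human lines grown from B-cell precursor acute lymphoblastic leukemia (B-ALL). The measurements were lists of ChIP-seq peaks, regions where DNA recovered with the antibody was enriched. The Nalm6 list held 70866 peaks on chromosomes 1 to 22 and X, and it was limited to its 19652 top-scored peaks, the length of the complete 697 list. The 697 list held 19610 peaks on the same chromosomes. The comparison therefore covered 39262 of the 300249 peaks in the 5 lists of the series. A peak was called shared when a peak of the other list overlapped it by at least 1 bp, and line-specific otherwise. In all, 6 Ikaros and 5 input libraries had been made from Nalm6, 697, JM1 and REH cells. Nalm6 cells had received 20 µM CX-4945 for 1 day and 697 cells were untreated. The other lists used below came from JM1 cells with the same dose and time of CX-4945, untreated JM1 cells and untreated REH cells, all made with a Bethyl Ikaros antibody. Neither untreated Nalm6 nor treated 697 cells were analysed here, so cell line and treatment cannot be told apart in any difference below. Each condition had 1 list, so no difference has a replicate check and no test was made.

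Ikaros, encoded by IKZF1, is a zinc finger transcription factor needed for lymphoid development, and its loss by deletion is a recurrent event in high-risk B-ALL. It binds DNA at sequences around a GGGAA core and works with the NuRD and SWI/SNF chromatin remodelling complexes. The protein kinase CK2 phosphorylates Ikaros and lowers its DNA binding, protein phosphatase 1 removes those phosphates, and CX-4945 (silmitasertib) blocks the ATP site of CK2. Nalm6 carries a DUX4 rearrangement, a founding lesion of B-ALL.

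The sequences below show what shared and line-specific regions looked like. Apart from the IKZF1 exon peak, which had rank 3 in the whole Nalm6 list and is printed whole, each is a 200 bp window inside a high-scored peak and outside annotated UTRs. They were read from the plus strand of GRCh38, and capitals mark CG dinucleotides. The promoters came from the top of the shared, Nalm6-only and 697-only promoter ranks, and the CYTH3 intron headed the shared peaks outside promoters.
IKZF1 exon 4 peak (Nalm6 only), chr7:50376538-50376786: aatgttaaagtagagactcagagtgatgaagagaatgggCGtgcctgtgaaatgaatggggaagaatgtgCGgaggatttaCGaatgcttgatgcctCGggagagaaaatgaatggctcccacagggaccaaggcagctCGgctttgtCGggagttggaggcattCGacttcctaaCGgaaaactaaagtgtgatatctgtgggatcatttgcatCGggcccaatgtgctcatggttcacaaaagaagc
IER3-AS1 promoter (shared), chr6:30742990-30743189: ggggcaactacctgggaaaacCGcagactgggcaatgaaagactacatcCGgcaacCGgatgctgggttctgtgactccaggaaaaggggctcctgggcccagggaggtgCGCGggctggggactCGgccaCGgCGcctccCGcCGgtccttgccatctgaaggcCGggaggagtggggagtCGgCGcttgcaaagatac
CYTH3 intron (shared), chr7:6272300-6272499: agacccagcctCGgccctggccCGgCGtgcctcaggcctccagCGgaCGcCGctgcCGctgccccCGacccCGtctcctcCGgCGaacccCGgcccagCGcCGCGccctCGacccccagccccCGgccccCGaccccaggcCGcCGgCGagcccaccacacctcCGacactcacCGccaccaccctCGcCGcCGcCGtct
EHBP1 promoter (Nalm6 only), chr2:62706054-62706253: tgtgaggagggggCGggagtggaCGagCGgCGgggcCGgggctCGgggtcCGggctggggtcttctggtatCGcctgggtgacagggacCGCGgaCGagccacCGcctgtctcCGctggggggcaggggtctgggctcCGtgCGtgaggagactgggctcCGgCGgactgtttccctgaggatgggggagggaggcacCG
TTC13 promoter (Nalm6 only), chr1:230978292-230978491: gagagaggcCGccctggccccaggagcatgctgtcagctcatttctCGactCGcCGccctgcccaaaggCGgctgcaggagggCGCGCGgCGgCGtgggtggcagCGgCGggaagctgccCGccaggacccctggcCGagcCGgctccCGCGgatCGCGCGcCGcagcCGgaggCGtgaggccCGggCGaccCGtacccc
FILIP1L promoter (697 only), chr3:99876211-99876410: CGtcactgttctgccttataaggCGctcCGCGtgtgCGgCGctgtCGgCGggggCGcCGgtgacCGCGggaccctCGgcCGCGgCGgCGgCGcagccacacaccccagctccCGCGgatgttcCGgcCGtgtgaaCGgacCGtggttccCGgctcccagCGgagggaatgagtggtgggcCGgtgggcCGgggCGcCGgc
The shared CYTH3 window held 27 CG dinucleotides and the shared IER3-AS1 window held 13. The Nalm6-only EHBP1 and TTC13 windows held 18 and 26, and the 697-only FILIP1L window held 30. The IKZF1 exon peak had 9 in 249 bp. Of these 6 sequences, 1 contained the hexamer TGGGAA on either strand, that of IER3-AS1. The shorter core GGGAA also occurred, on one strand or the other, in the IKZF1, EHBP1, TTC13 and FILIP1L sequences.

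Peak scores were the authors' own whole numbers and are printed as such. Any order between the lists is read from the percentile of the score within its own list. The limit fell at a score of 28 in Nalm6. Of 1478 peaks with that score 542 were kept in file order, and 30.4% of those overlapped a 697 peak, while 27.5% of the 1647 peaks with the next lower score did. The Nalm6 list ran to peak number 73373 with 2479 numbers absent, and 0 of its peaks were without a gene name, whereas 472 of the 697 peaks had none. Transcripts of those unnamed 697 peaks occurred 0 times in the Nalm6 list. Unnamed 697 peaks were overlapped by the whole Nalm6 list in 12.3% of cases and named ones in 90.4%, so the absence of a Nalm6 peak is read below from named 697 peaks where the count allows. Within 1000 bp of a transcription start site (TSS), 74.6% of all protein-coding genes had a peak in the whole Nalm6 list, 54.8% in its top list and 49.6% in 697. By that rule 8 of 8 B-precursor markers had a peak in the whole Nalm6 list and 4 in its top list, against 2 in 697 (PAX5 and EBF1). Of 5 T-cell markers, 2 had one in either list, of 4 myeloid markers 4 had one in the whole Nalm6 list and 1 in 697, and of 3 erythroid markers 0 had one in either. Peaks show binding and not expression, so these counts do not establish the cell type.

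By an overlap of at least 1 bp, most peaks of either list were held in common, but with a reciprocal overlap of 50% the shares were 25.8% for the Nalm6 top list and 25.8% for 697, and with the 5000 top peaks of each list 40.8% and 41.3%. Of the Nalm6 top peaks, 11128 (56.6%, 95% exact Clopper-Pearson interval 55.9 to 57.3%) overlapped a 697 peak. Of the 697 peaks, 12687 (64.7%, 64.0 to 65.4%) overlapped a Nalm6 top peak. The intervals cover counting error only. Most 697-only peaks were not missing from Nalm6 altogether: of 6923 such peaks, 4665 (67.4%) overlapped a Nalm6 peak below the score limit and 2258 overlapped no Nalm6 peak. Of these 2258 peaks, 1844 had a gene name. Against the whole Nalm6 list, 88.5% of 697 peaks were overlapped.

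Overlap increased with rank in both lists, as the plot of overlap by score decile shows. In the whole Nalm6 list, 1.18% of peaks in the lowest decile (scores 10 to 12) and 77.3% in the highest (43 and above) overlapped a 697 peak. In the 697 list, 26.4% of the lowest decile and 91.1% of the highest overlapped a Nalm6 top peak. Against the whole Nalm6 list the same 697 deciles gave 59.2% and 97.4%. Across 17352 697 peaks overlapped by the whole Nalm6 list, the scores of overlapping peaks had a Spearman correlation of 0.42. This describes peaks of the same 2 lists, which are not replicates, and the part of width and base composition in it was not tested. It was 0.33 over 7662 promoter peaks and 0.42 over 9690 others.

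**Figure D1:**
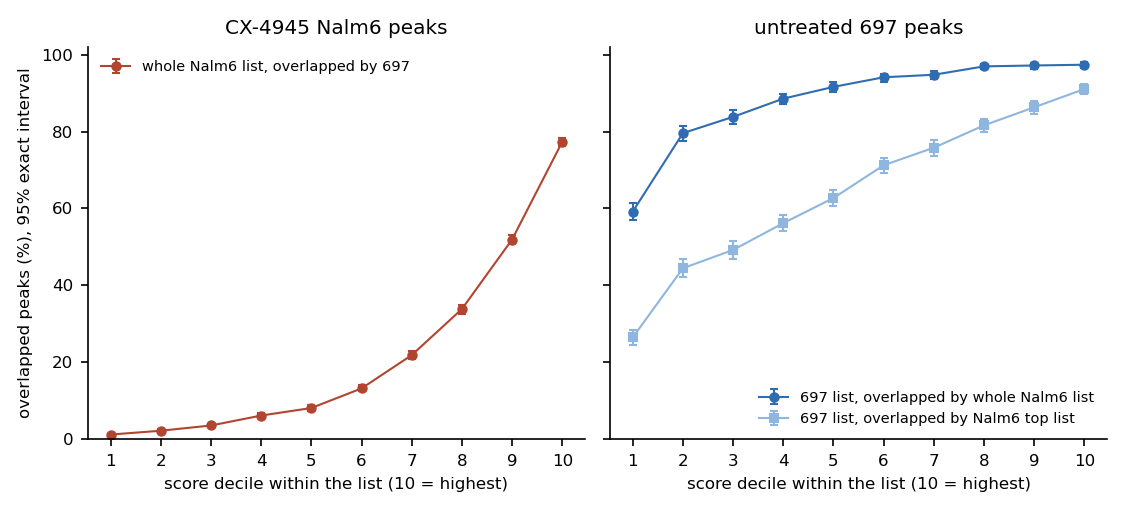
Share of peaks (y axis, %) overlapped by the other list in each score decile of their own list (x axis, 10 is the highest), with 95% exact intervals, for the whole CX-4945 Nalm6 list (left) and the untreated 697 list (right). The Nalm6 curve ends at 77.3%, and the 697 curves end at 97.4% for overlap with the whole Nalm6 list and 91.1% for the top list.

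By the overlap rule, shared peaks were the wide, high-ranked peaks of their list. A wider peak meets that rule more easily, and the part of width in sharing was not tested. Nalm6 percentiles begin at the score limit in both sets. From the lowest to the highest score decile of the Nalm6 top list, overlap rose from 32.4% to 87.5%, with median widths of 1195 and 1228 bp. In 697 the median width rose with score, from 380 bp in the lowest decile to 909 bp in the highest. Nalm6 shared peaks had a median width of 1693 bp and a median percentile of 90.1, against 752 bp and 81.8 for Nalm6-only peaks. For 697, shared peaks measured 754 bp at percentile 61.8, and 697-only peaks 413 bp at percentile 30.2. The 697 peaks with no Nalm6 peak were the narrowest and lowest, at 326 bp and percentile 16.8. Where peaks of the lists overlapped, the Nalm6 peak was the wider in 94.2% of cases, by a median factor of 2.56, and 75.7% of the 697 peaks lay wholly inside it. The overlap covered 11.6 Mb, which was 29.3% of the sequence in Nalm6 top peaks and 71.8% of that in 697 peaks. In 970 cases a single Nalm6 peak held several 697 peaks. The highest number, 11, was reached in a 40233 bp Nalm6 peak at FAM174C on chromosome 19 (1256971 to 1297203, score 40).

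Shared sites lay at promoters more often than line-specific sites in either line. With only the 5000 top peaks of each list the shares were closer, at 58.8% of Nalm6 shared and 51.9% of Nalm6-only peaks and 63.2% of 697 shared and 55.8% of 697-only peaks. Promoters, by the authors' annotation class, made up 48.4% of Nalm6 shared peaks (47.5 to 49.4%) and 25.0% of Nalm6-only peaks (24.1 to 25.9%). They made up 49.7% of 697 shared peaks (48.8 to 50.6%), 24.3% of 697-only peaks (23.3 to 25.4%) and 14.5% of 697 peaks with no Nalm6 peak (13.1 to 16.0%). Intergenic peaks ran the other way, with 9.50% of Nalm6 shared and 24.7% of Nalm6-only peaks, and 9.76% of 697 shared and 22.6% of 697-only peaks. Introns held 23.1% of Nalm6 shared and 33.0% of Nalm6-only peaks, and 19.7% of 697 shared and 33.7% of 697-only peaks. Seen from the classes, 71.7% of Nalm6 top promoter peaks and 33.4% of intergenic ones were shared, and 78.9% of 697 promoter peaks and 44.2% of intergenic ones were. The whole Nalm6 list reached 95.9% of the 697 promoter peaks. When a peak pair overlapped, both peaks had the same class in 72.1% of cases and the same gene name in 92.0%.

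**Figure D2:**
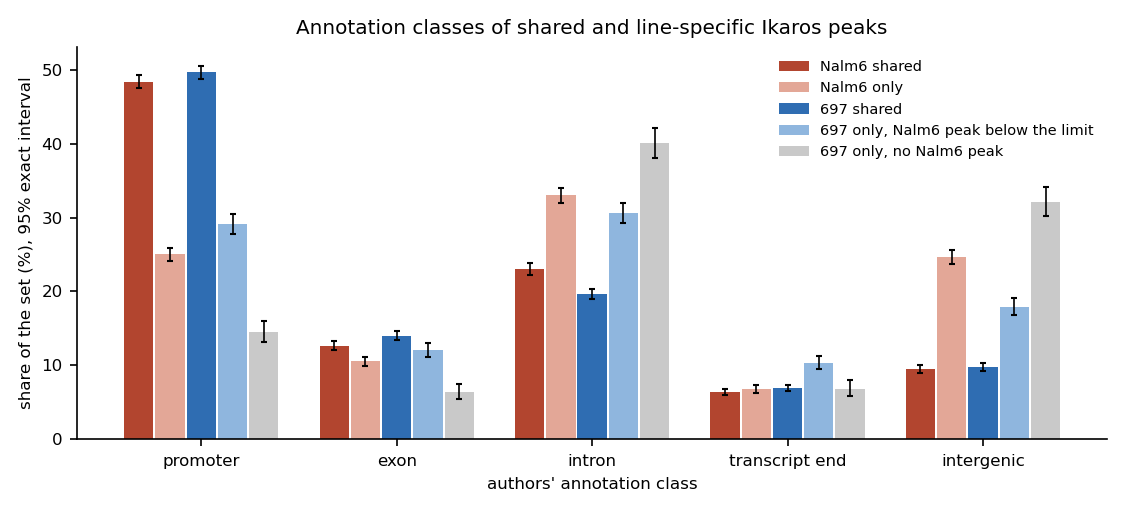
Share of each set of peaks (y axis, %) in the authors' annotation classes (x axis), with 95% exact intervals; the sets are Nalm6 shared, Nalm6 only, 697 shared, and 697-only peaks split by whether Nalm6 had a peak below the score limit. Promoters held 48.4% of Nalm6 shared and 49.7% of 697 shared peaks, against 25.0% of Nalm6-only peaks and 14.5% of 697 peaks with no Nalm6 peak.

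Base composition followed the same split. In 200 bp windows at peak centres, GC content was 68.7% in Nalm6 shared and 62.4% in Nalm6-only peaks, 71.3% in 697 shared and 62.8% in 697-only peaks, and 55.9% in 697 peaks with no Nalm6 peak. Windows 3000 bp away had 46.2 to 49.6% in those sets. The median number of CG dinucleotides per window was 18 in Nalm6 shared and 8 in Nalm6-only peaks, 20 in 697 shared and 8 in 697-only peaks, and 4 in 697 peaks with no Nalm6 peak. The hexamer TGGGAA, an Ikaros-type core searched on both strands, was less frequent in shared than in line-specific windows. It occurred in 12.5% of Nalm6 shared and 17.7% of Nalm6-only windows, and in 10.4% of 697 shared and 16.1% of 697-only windows. The share was 16.6 to 17.4% in the flanking windows and 17.0% in 34959 RefSeq promoters of the same length (GRCh38), so line-specific windows held it about as often as flanking sequence did. The ETS-type core GGAAGT, which can overlap TGGGAA by 4 bases, was found in 9.63% of Nalm6 shared, 11.7% of Nalm6-only, 8.37% of 697 shared and 10.4% of 697-only windows, against 9.77 to 10.7% of their flanking windows and 16.7% of RefSeq promoters. The E-box CACGTG was found in 4.61%, 5.37%, 5.35% and 5.94% of windows of those sets in the same order, against 2.79 to 3.38% of their flanking windows and 5.50% of RefSeq promoters. A match is a description of the letters and was not tested against occupancy.

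By an overlap of at least 1 bp, line-specific peaks were mostly present in a further B-ALL line. With a reciprocal overlap of 50% this held for 69.9% of Nalm6-only peaks and 27.3% of 697-only peaks. The untreated JM1, CX-4945 JM1 and untreated REH lists took no part in choosing the sets. At least 1 of them held 94.5% of Nalm6-only peaks and 83.8% of 697-only peaks, against 99.7% of Nalm6 shared and 99.8% of 697 shared peaks. Among the 1844 named 697 peaks with no Nalm6 peak, 49.2% were found (46.9 to 51.5%), and with the unnamed ones included 55.9% of 2258. Of the 697-only peaks of promoter class 96.0% were found and of the others 79.9%, while for Nalm6-only peaks those shares were 97.7% and 93.4%. Nalm6-only peaks were overlapped by untreated JM1 in 40.9%, by CX-4945 JM1 in 84.9% and by REH in 88.9% of cases. For 697-only peaks those shares were 44.5%, 77.6% and 79.3%. The JM1 and REH lists differ in length, with 37448 peaks in untreated JM1, 88692 in CX-4945 JM1 and 83563 in REH, and the part of list length in these shares was not tested. Among 1844 named 697 peaks with no Nalm6 peak, 3.36% lay at an unnamed peak of JM1 or REH, against 0.768% of named 697 shared peaks. Among those of promoter class the share was 15.7% of 248.

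**Figure D3:**
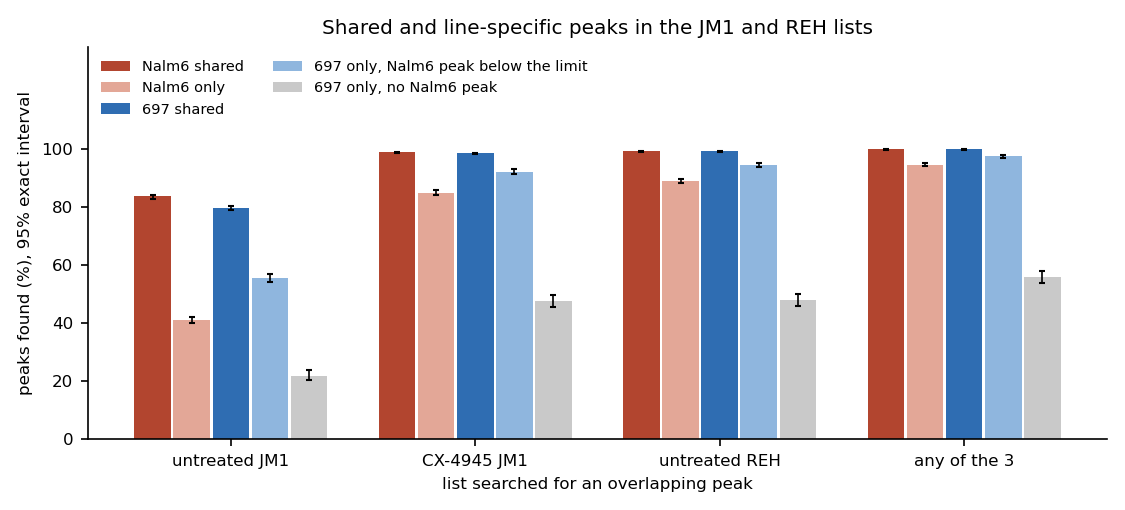
Share of each set of peaks (y axis, %) overlapped by a peak of untreated JM1, CX-4945 JM1, untreated REH or any of the 3 lists (x axis), with 95% exact intervals. For any of the 3 lists, Nalm6-only peaks reach 94.5% and 697-only peaks with a Nalm6 peak below the limit 97.3%, while 697 peaks with no Nalm6 peak reach 55.9%, or 49.2% of those with a gene name.

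The strongest shared promoters combined top ranks in both lines. The divergent transcript IER3-AS1, next to the stress-response gene IER3, had a Nalm6 peak with a score of 257 (chromosome 6, 30741915 to 30744889) and a 697 peak with a score of 331 (30742011 to 30744856). It ranked above the 99.9th percentile of its list in either line. SF1, which binds the branch point in splicing, had scores of 106 in Nalm6 and 111 in 697. STAT5B, a transducer of cytokine signals with a role in B-ALL, scored 75 in Nalm6 and 103 in 697. RCAN1, an inhibitor of calcineurin, scored 103 in Nalm6 and 82 in 697. The other shared promoters at the top were GRHL1 (a grainyhead transcription factor, 90 in Nalm6 and 101 in 697), LMBR1 (90 and 92), BICDL1 (a dynein adaptor, 81 and 95), GRB10 (an adaptor of the insulin receptor, 79 and 104), PLPPR3 (96 and 87), RAB3IP (an exchange factor for RAB GTPases, 76 and 84), PHF10 (a subunit of the PBAF remodeller, 77 and 83) and KCTD6 (a cullin adaptor, 74 and 89), each with the Nalm6 score first. By percentile, IER3-AS1, SF1, GRHL1, LMBR1 and PHF10 stood higher in Nalm6, although their scores were lower there. For the others of the 12 the orders by score and by percentile were the same. All 12 also had a peak in each of the 3 JM1 and REH lists, as did 85.1% of all Nalm6 shared promoter peaks.

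Outside promoters, the 8 shared peaks of highest rank scored 71 to 105 in Nalm6. An intron of CYTH3, an exchange factor for ARF GTPases, scored 82 in Nalm6 and 96 in 697. DNMT3A, a DNA methyltransferase, had an intronic peak of 4133 bp with a score of 71 in Nalm6 and of 3045 bp with 84 in 697. AGO2, the slicer of RNA interference, had scores of 75 in Nalm6 and 105 in 697. FKBP5, a glucocorticoid-induced co-chaperone, scored 71 in Nalm6 and 86 in 697. GIGYF1 (a translational repressor, 105 in Nalm6 and 92 in 697), UBTD2 (81 and 96), ZFHX3 (a homeobox factor, 77 and 79) and NUCKS1 (79 and 78) made up the 8. By percentile ZFHX3 stood higher in Nalm6, at 99.3 against 98.9 in 697, and for the others of the 8 both orders were the same.

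Promoters seen in Nalm6 alone included 1536 gene names with no 697 peak at the site or under the name. The 12 at the top had scores of 83 to 110, all above the 99.6th percentile of the Nalm6 list. EHBP1, which links endocytosis to actin, had a 633 bp peak with a score of 110 (chromosome 2, 62705704 to 62706336). TTC13 followed with 96 and POLDIP3, a factor in mRNA export, with 94. CCDC113 and CFAP206, both genes of motile cilia, scored 92 and 91. ACTR6, a subunit of the SRCAP remodeller, scored 87, and ELOC, the elongin C adaptor of ubiquitin ligases, 86. EXT2 (heparan sulfate synthesis) and MTMR2 (a phosphoinositide phosphatase) also scored 86, ZFAND2B (a proteasome adaptor) and ZNF140 (a zinc finger repressor) 84, and PFDN4 (a prefoldin chaperone) 83. All 12 had a peak in CX-4945 JM1 and in untreated REH and 6 had one in untreated JM1. Over all Nalm6-only promoter peaks those shares were 92.4% for CX-4945 JM1, 94.0% for REH and 53.8% for untreated JM1. EXT2 lay in a stretch of 12 consecutive Nalm6-only top peaks on chromosome 11 (44065919 to 44694630), which also held ACCS and CD82 and in which the 697 list had 1 peak. Away from promoters, the 8 at the top scored 85 to 94. They were ETF1 (translation termination), CCIN (a sperm head protein), JAGN1 (a protein of the endoplasmic reticulum), RFXAP (a regulator of MHC class II genes), POLR2C (a subunit of RNA polymerase II), ERI3, DDO (D-aspartate oxidase) and PRRC2C, and all 8 had a peak in CX-4945 JM1 and in REH. Of all Nalm6-only peaks outside promoters, 82.3% had one in CX-4945 JM1 and 87.2% in REH.

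Promoters seen in 697 with no Nalm6 peak at any score were fewer, at 115 gene names with none at the site or under the name. The 697 list is the shorter one and was set here against the whole Nalm6 list, so this count and the Nalm6-only count are not on one footing. FILIP1L, a filamin-interacting protein, led with a score of 85 (chromosome 3, 99876072 to 99876429, percentile 99.3 of the 697 list). KCNK12, a potassium channel subunit, scored 57 over 2223 bp. EED, a core subunit of the Polycomb repressive complex that methylates histone H3, scored 52 in a 273 bp peak and had JM1 scores of 77 with CX-4945 and 211 untreated. SFR1, a factor of homologous recombination, scored 49 and CDK19, a kinase of the Mediator complex, 44. CDKN2A, which encodes cell cycle inhibitors often lost in B-ALL, scored 44 and was the 1 promoter of the 12 with no peak in any of the 3 JM1 and REH lists. Of all 328 promoter-class 697 peaks with no Nalm6 peak, 14.6% had none in those lists. PRSS27 (a serine protease) scored 44, FOXC2-AS1 41, MYO3A 40, and COLCA1 and KIF21A (a kinesin) 38. For PRSS27, FOXC2-AS1 and COLCA1 the overlapping JM1 or REH peak carried no gene name in at least 1 list, and such peaks are absent from the Nalm6 list. Outside promoters, 5 of the 8 peaks of highest rank had no counterpart in JM1 or REH: MIR3182, RPL23AP84, RNA5SP35, PSMB3P2 and ACTR3C, 226 to 323 bp wide and with scores of 33 to 54. Of all 1930 non-promoter 697 peaks with no Nalm6 peak, 49.1% had no such counterpart. TMEM41B (an endoplasmic reticulum scramblase) and IFT81 (ciliary transport) scored 45 and 42 and had peaks in all 3 lists, and DDX11L16, near the end of chromosome X, scored 50 and had one in REH.

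Over all gene names, 4281 had a promoter-class peak in both the Nalm6 top list and 697, 2768 in the Nalm6 top list and not in 697, and 1846 in 697 and not in the whole Nalm6 list. A peak gives its name to 1 gene only, so a short shift can move a name from one list to the other. A second rule counted a protein-coding gene when a peak reached to 1000 bp or less from one of its TSSs. Of 19962 protein-coding genes, 3915 (19.6%) had promoter-class peaks in both lists, 2114 (10.6%) in Nalm6 alone and 1416 (7.09%) in 697 alone. Near a TSS the counts were 8488 (42.5%) in both, 2450 (12.3%) in the Nalm6 top list and not in 697, 1196 (5.99%) in 697 and in Nalm6 below the limit, and 225 (1.13%) in 697 with no Nalm6 peak. In all, 10938 genes (54.8%) had such a peak in the Nalm6 top list, 14882 (74.6%) in the whole Nalm6 list and 9909 (49.6%) in 697. The gene groups below are read by this second rule. For each gene the score is that of its highest peak near any of its TSSs, and for 29 of 186 members with a peak in both lists that peak lay at another site in each list, which is said where such a gene is named below. The score is taken from the whole Nalm6 list, and over all protein-coding genes with one the median percentile was 86.2 in the whole Nalm6 list and 68.2 in 697. The lists differ in length, so these medians are the values to read a gene group against.

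The transcription factors of early B-cell development were bound in both lines in 19 of 21 cases, and 20 of 21 had a peak in each list taken alone. By promoter class 12 of 21 were in both. Over all protein-coding genes 42.5% were in both, 54.8% in the Nalm6 top list and 49.6% in 697, and 19.6% were in both by promoter class. Of the 20 with a peak in both the whole Nalm6 list and 697, 14 had the higher percentile in Nalm6 and 6 in 697, while over all 9684 protein-coding genes with a peak in both 81.0% had the higher percentile in Nalm6. The median percentile of the group was 86.2 in Nalm6, the same as over all genes, and 51.4 in 697, below the value over all genes. The highest TCF3 peaks, at the gene whose product E2A starts the B-lineage program, lay at different promoters, 29.1 kb apart. At the 697 site the scores were 31 in Nalm6 (percentile 77.5) and 117 in 697 (percentile 99.9), and at the Nalm6 site 38 in Nalm6 (86.2) and 28 in 697 (64.1). ERG, an ETS factor deregulated in DUX4-rearranged B-ALL, scored 72 in Nalm6 (98.9) and 22 in 697 (48.4), and IRF4, a factor of the pre-B transition, 69 in Nalm6 (98.7) and 23 in 697 (51.4). RUNX1 scored 70 in Nalm6 and 43 in 697, and ETV6, an ETS-family repressor, 59 in Nalm6 and 21 in 697. FOXO1, a regulator of RAG expression, scored 59 in Nalm6 and 21 in 697. PAX5, the factor that commits cells to the B lineage, scored 52 in Nalm6 (94.7) and 23 in 697 (51.4), with 4 peaks under its name in the Nalm6 top list and 2 in 697. EBF1 scored 33 in Nalm6 and 23 in 697 at sites 3.55 kb apart. MYB ranked higher in 697 than in Nalm6, at 45 in Nalm6 (91.4) and 60 in 697 (95.8). SPI1, which encodes PU.1, had a peak in Nalm6 alone, with a score of 33. BACH2, a repressor active at the pre-B checkpoint, scored 28 in Nalm6, a tie at the limit that was not kept, and 33 in 697.

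Genes of pre-B cell receptor signalling showed the opposite picture, with 3 of 13 bound in both lists: LYN, PLCG2 and PRKCB. In Nalm6, 5 of 13 had a peak in the top list and 11 in the whole list, against 3 in 697. Over all protein-coding genes those shares were 54.8%, 74.6% and 49.6%, with 42.5% in both lists. The surrogate light chain genes VPREB1, VPREB3 and IGLL1 had Nalm6 scores of 13, 12 and 16, and none had a 697 peak of any class. CD79A and CD79B, the signalling chains of the receptor, scored 23 and 18 in Nalm6 and had none in 697, and SYK, the kinase they recruit, scored 17 in Nalm6 and had none in 697. These 6 genes lay below the Nalm6 limit, where the Nalm6 list goes deeper than the 697 list. Above the limit, the phosphatase gene PTPN6 scored 52 in Nalm6 and BLK 34, both with no 697 peak near a TSS. PLCG2, a phospholipase downstream of BTK, scored 57 in Nalm6 and 42 in 697, and the kinase LYN 35 in Nalm6 and 42 in 697. Among B-precursor surface genes 5 of 14 were in both lists, beside the 42.5% of all protein-coding genes. CD22, a target of current immunotherapies, scored 33 in Nalm6 and had no peak under its name in 697, while MME, which encodes CD10, scored 50 in Nalm6 and 20 in 697 and CD99 scored 31 in Nalm6 and 55 in 697. Of 11 genes of V(D)J recombination and end joining 3 were in both, below that 42.5%, among them RAG1 and LIG4. RAG1 had 0 peaks of any class under its own name in either list. It was counted through promoter-class peaks near an annotated TSS, with scores of 36 in Nalm6 and 12 in 697. LIG4 scored 76 in Nalm6 and 38 in 697. At the promoter peak under the LIG4 name the order was the other way. It scored 21 in Nalm6 (52.0), below the limit, and 29 in 697 (66.2).

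**Figure D4:**
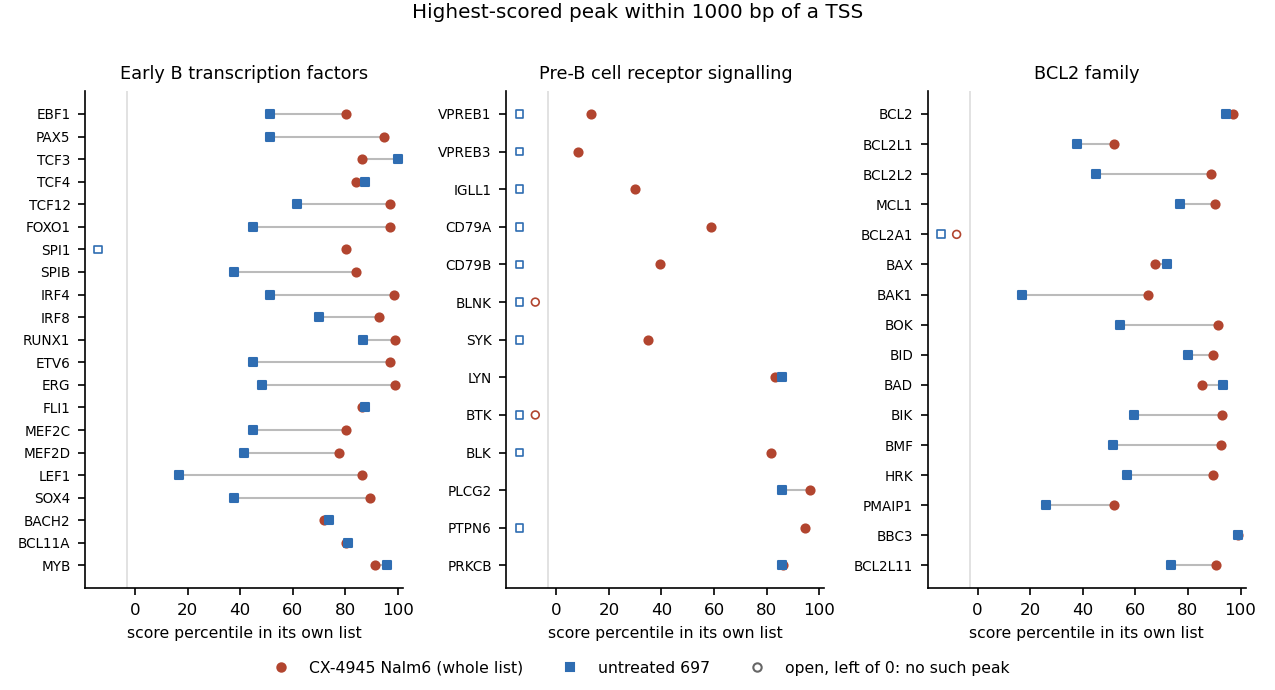
Percentile (x axis, within each list) of the highest-scored peak within 1000 bp of a TSS for each gene (y axis) of 3 groups, with red circles for CX-4945 Nalm6 and blue squares for untreated 697; open symbols left of 0 mark genes with no such peak. TCF3 stands at 86.2 in Nalm6 and 99.9 in 697 (different sites), 14 of the 20 early B factors with a peak in both lists stand further right in Nalm6, against 81.0% of all protein-coding genes, and 3 of 13 pre-B receptor genes have a 697 peak.

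The genes of the regulatory system itself were bound in part in either line. IKZF1 had a promoter peak with a score of 52 in Nalm6 (percentile 94.7) and 79 in 697 (percentile 98.9). The related factors split: IKZF4 was bound in both, with scores of 41 in Nalm6 and 61 in 697, IKZF5 in Nalm6 alone with 33, and IKZF3, which encodes Aiolos, in 697 alone with 27. IKZF2 (Helios) scored 23 in Nalm6, below the limit, and 17 in 697. Of 6 CK2 and protein phosphatase 1 genes 5 were in both, beside 42.5% of all protein-coding genes. CSNK2A2, a catalytic subunit of CK2, scored 73 in Nalm6 (99.0) and 62 in 697 (96.4). The other catalytic subunit gene CSNK2A1 scored 28 in Nalm6 and 17 in 697. Its Nalm6 peak was a tie at the limit that was kept by file order, so its place among the 5 rests on that order. The regulatory subunit gene CSNK2B scored 16 in Nalm6, below the limit, and had no 697 peak. The phosphatase genes PPP1CB and PPP1CC scored 63 and 32 in Nalm6 and 36 and 13 in 697, and PPP1CA 48 in Nalm6 and 42 in 697 at sites 13.1 kb apart.

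The partner complexes of Ikaros were bound in most members. Of 13 NuRD genes 11 were in both lists, beside 42.5% of all protein-coding genes. MBD2 was highest at 80 in Nalm6 and 76 in 697. CHD4, the remodelling ATPase of NuRD, had its highest peaks at sites 5.24 kb apart, with 56 in Nalm6 (96.0) at a promoter where 697 had none and 15 in 697 (21.5) where Nalm6 scored 24. MBD3 scored 30 in Nalm6 and 73 in 697. RBBP4 scored 49 in Nalm6 and had no 697 peak. Of 14 SWI/SNF genes 12 were in both and all 14 were in 697, beside 42.5% and 49.6% of all protein-coding genes. SMARCA4, the ATPase BRG1, scored 40 in Nalm6 (87.9) and 129 in 697, which placed it among the highest 697 peaks.

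Of 16 BCL2 family genes 11 were in both lists and 15 in 697, beside 42.5% and 49.6% of all protein-coding genes. The 42.5% also stands beside the other counts in both lists of this paragraph. BCL2 itself scored 60 in Nalm6 (97.1) and 56 in 697 (94.5) and MCL1 43 in Nalm6 and 35 in 697. BBC3, which encodes the death effector PUMA, scored 75 in Nalm6 (99.2) and 81 in 697 (99.1) at sites 7.35 kb apart. At the 697 site of BBC3 Nalm6 scored 68. BCL2L1, which encodes BCL-XL, scored 21 in Nalm6, below the limit, and 19 in 697 (chromosome 20, 31722561 to 31723998 in Nalm6 and 31722793 to 31723828 in 697). Of 19 PI3K and AKT genes 16 were in both, with AKT2 at 69 in Nalm6 (98.7) and 72 in 697 (98.2). PIK3CD, the leukocyte catalytic subunit, scored 72 in Nalm6 and 40 in 697 at sites 36.1 kb apart, and at the 697 site Nalm6 scored 55. Of 19 JAK-STAT and NF-kB genes 17 were in both. JAK1 scored 79 in Nalm6 and 55 in 697, JAK2 45 in Nalm6 with no 697 peak, and STAT3 67 in Nalm6 (98.4) and 20 in 697 (41.3). Of 17 glycolysis genes 10 were in both, with HK1 at 81 in Nalm6 and 59 in 697, and PFKL at 47 in Nalm6 and 85 in 697. Ribosomal protein genes (9 of 28 in both) and core splicing factors (5 of 16) lay below the 42.5% of all protein-coding genes, as did DNA damage genes (2 of 15). RPS19 scored 96 in Nalm6 and 50 in 697.

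Some genes linked to the DUX4 rearrangement carried by Nalm6 had peaks in 697 too. Of 8 genes linked to DUX4 leukemia 5 were in both and 3 in neither. Over all protein-coding genes 42.5% were in both lists and 49.6% had a 697 peak, and the group is small. AGAP1 scored 72 in Nalm6 and 21 in 697, and had 3 peaks of any class under its name in the Nalm6 top list and 2 in 697. PTPRM scored 63 in Nalm6 and 32 in 697. Of 22 cell cycle genes 11 were in both, among them CCNE1 at 51 in Nalm6 and 83 in 697 and CDK4 at 61 in Nalm6 and 73 in 697. MYC scored 43 in Nalm6 and had no 697 peak. Among markers of other cell types, 8 of 15 T-cell, 2 of 12 myeloid, 2 of 11 erythroid and platelet and 2 of 11 liver, muscle and pancreas genes were in both lists. Beside the 42.5% of all protein-coding genes, the T-cell share was somewhat higher and the other shares were lower. The myeloid factor gene CEBPA scored 37 in Nalm6 and 64 in 697.

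At 2 loci the lists differed over more than a single promoter. In IKZF1 (chromosome 7, GRCh38), the peak of rank 3 in the whole Nalm6 list, with a score of 224, lay wholly inside exon 4 (50376538 to 50376786, in an exon from 50376533 to 50376793). It is the first sequence printed above. None of the 697, JM1 and REH lists had a peak there. A second Nalm6 peak, with a score of 117 and rank 13 (50399675 to 50400732), covered the start of exon 8, with 815 of its 1058 bp in the exon, where the 697 peak scored 17 (percentile 30.2). Peaks with both edges within 10 bp of the edges of 1 exon were rare, at 18 of 70866 in Nalm6 and 8 of 19610 in 697, and at 5 to 11 in the other 3 lists. The IKZF1 peak had the highest score among them. Whether genomic binding or another source of exon DNA gave these peaks was not tested.

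On chromosome 9 the whole Nalm6 list had 0 peaks over 2.22 Mb (19934693 to 22154234), a span with CDKN2A near its end. The 697 list had 6 peaks there, at MLLT3 (score 21), MIR31HG (22), MTAP (18), CDKN2A-DT (16) and CDKN2A (44 and 28). The higher CDKN2A peak lay at 21974706 to 21975249, and no list except 697 had a peak there. Untreated JM1 had 1 peak in the span, CX-4945 JM1 12 and REH 7, none of them at CDKN2A. Of 749 spans over 0.5 Mb without a Nalm6 peak 129 held a named 697 peak, and this span held the most. Copy number was not analysed here, and a lost locus and an unbound one cannot be told apart from a peak list.

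**Figure D5:**
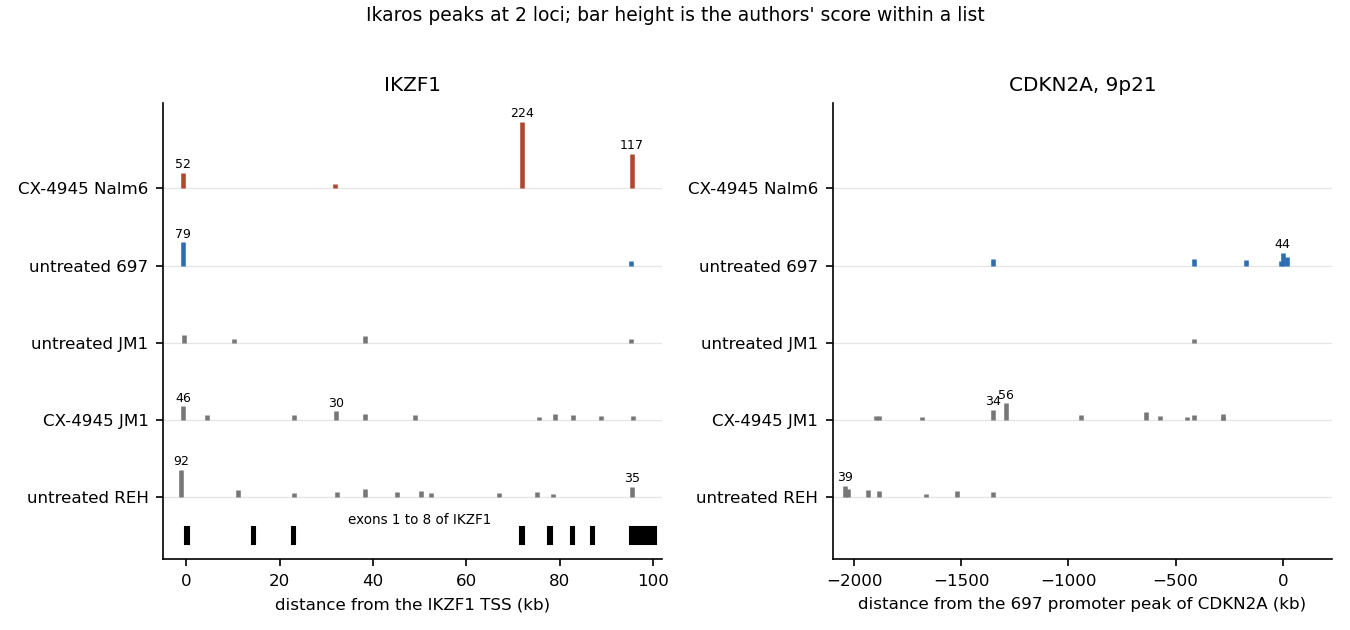
Ikaros peaks at IKZF1 (left, distance from its TSS in kb, exons as black boxes) and in the chromosome 9 span around CDKN2A (right, distance from the 697 promoter peak in kb), with 1 row per list and bar height giving the authors' score within that list; scores of 30 and above are printed. Nalm6 alone has the bar of 224 at exon 4 of IKZF1, and the Nalm6 row is empty in the CDKN2A span where 697 has 6 peaks.

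The chromosomes contributed unevenly. Chromosome X had 176 Nalm6 top peaks and 378 697 peaks, a ratio of 0.466, and 31.7% of its 697 peaks were shared with the Nalm6 top list, against 57.3 to 75.3% on chromosomes 1 to 22. In the whole Nalm6 list 80.7% of the chromosome X peaks of 697 had a counterpart. Chromosome 14 had the highest ratio, at 1.23, with 582 Nalm6 and 473 697 peaks. Chromosome 19 carried the most 697 peaks, 2110, against 1743 in Nalm6, and 63.4% of its Nalm6 and 63.8% of its 697 peaks were shared.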

How the data were processed

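Ikaros ChIP-seq peak lists were analysed as deposited. Sequencing was paired-end and BBDuk removed low-quality bases, per the labels' protocols. The submitters' processing notes name GRCh38, HOMER 4.10, MACS2 2.1.1 and Bowtie2 2.3.4.3. How the score is defined, which control each call used and the call settings were not given in the sources used here. Whether the Nalm6 list came from 1 or both of its 2 Ikaros libraries was also not given. The authors assigned each deposited peak its whole-number score, its class and the gene it lay nearest to, per the file headers. Scores were turned into percentiles within each list (mid-ranks for ties) and never compared between lists as amounts. Read depth was not analysed here. Groups follow the sample titles.

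Overlap, shares with 95% exact Clopper-Pearson intervals (counting error only) and counts were computed with Python 3.11.15, pandas 2.3.3, NumPy 2.4.6, SciPy 1.17.1 and Matplotlib 3.10.9, after a check on simulated intervals with planted overlaps. TSSs, exons and protein-coding genes are from GENCODE release 44, and 98.4% of Nalm6 and 95.8% of 697 peaks carried a name found there. Of 1926 transcripts given for unnamed peaks of the other 4 lists, 0 were in that release. With 1 list per condition there was no test.

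Named genes were the members of 22 gene lists, the 12 names of highest percentile among Nalm6-only, 697-only and shared promoter peaks, and the 8 of each outside promoters, without names of clone-based transcripts. The FAM174C and ACCS regions and the chromosome spans were chosen after their values were seen. Members and lists were chosen with earlier results of these data known. The alternatives tried were the overlap rule, a fixed peak width, the length of the Nalm6 list, ties at the limit, stricter score limits and the promoter rule. Some members and sequences are not reported here.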

Additional observations from a re-analysis of the deposited data

Results flagged for a closer look

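The 697 list held 42 peaks on sequences other than chromosomes 1 to 22 and X, and the Nalm6 list held 28. They were left out of every comparison and stand here because they are signal outside the main measurement.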

How the results depend on the processing

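Of 85 values recomputed under other settings, 36 stayed within the limits set for them and 49 moved. Both overlap shares were below 50% under the reciprocal, 600 bp and 5000-peak settings, and the share of 697-only peaks found in JM1 or REH was below 50% under the reciprocal one. The Nalm6 share, the 697 share and the 4 promoter shares (Nalm6 shared, Nalm6 only, 697 shared, 697 only) are given in that order. With a reciprocal overlap of 50% they were 25.8%, 25.8%, 56.4%, 32.0%, 58.3% and 34.6%, and 69.9% of Nalm6-only and 27.3% of 697-only peaks were found in JM1 or REH. With 600 bp around each centre they were 44.5%, 44.6%, 52.9%, 26.5%, 55.1% and 29.2%, and 75.4% and 57.8% were found. Against the whole Nalm6 list they were 21.7%, 88.5%, 42.8%, 12.7%, 44.2% and 14.5%, 81.3% and 55.9% were found, and 6140 gene names had a promoter peak in Nalm6 alone. With the 5000 top peaks of each list they were 40.8%, 41.3%, 58.8%, 51.9%, 63.2% and 55.8%, so the promoter shares of shared and line-specific peaks came closer. In JM1 or REH, 99.0% and 99.3% were found. The gene names numbered 1010 in both lists, 1685 in Nalm6 alone and 680 in 697 and not in the whole Nalm6 list. The counts for Nalm6 alone and for 697 are therefore not on one footing. With scores of at least 20 the overlap shares were 26.6% and 91.6%, the promoter shares of Nalm6-only, 697 shared and 697-only peaks 20.3%, 51.6% and 30.7%, 92.4% and 86.8% were found, and 5387 names were in Nalm6 alone. Keeping all Nalm6 ties gave overlap shares of 55.3% and 66.4%. Counting any TSS gave 8488 protein-coding genes in both lists and 225 in 697 alone.

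Leaving out 697 peaks without a gene name gave a 697 share of 66.0%; this setting and reversing the order of ties were chosen after seeing the data. The reciprocal and 600 bp settings give no gene names. No paired analysis was possible because each condition had 1 peak list, and no replicate could be left out. Depth is unknown, so an absent peak may be an undetected one.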
